A study of Mus musculus with 18 samples.

Results

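The regions described here are stretches of the mouse genome that lay in an H3K9me2 domain of embryonic stem cell-derived cardiomyocytes (CM) but in no H3K9me2 domain of embryonic stem cells (ESC) and in no Lamin B domain of either cell type. They were found on a 1 kb grid over chromosomes 1 to 19 as unbroken stretches of 20 kb or more, and are called gained stretches below. There were 854 of them, among 6686 stretches of at least that length with a single state in the 4 domain lists. Together they held 66.2 Mb, which was 5.11% of the CM H3K9me2 sequence and 48.1% of all sequence that was H3K9me2 in CM alone. Because membership was defined by the 4 lists, the number and total length of gained stretches are a description and carry no test.

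H3K9me2 is histone H3 dimethylated on lysine 9, a mark set mainly by the methyltransferases G9a and GLP and typical of repressed chromatin. Lamin B is a structural protein of the nuclear lamina, the protein meshwork under the inner nuclear membrane, and sequence that contacts it is usually rich in H3K9me2. H3K9me2 also occurs away from the lamina, where it has been studied mainly as a mark of silenced genes and of blocks of inactive chromatin in the nuclear interior.

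The series comprised 18 ChIP-seq libraries, and 4 lists of domains made from them were used. The CM lists for H3K9me2 and Lamin B were each named by 2 libraries of wild-type cells collected on day 10 of cardiac differentiation from embryoid bodies. No purification of cardiomyocytes is described in the protocols used here, and ChIP domains give no expression of marker genes with which to check the cell type. The ESC H3K9me2 list was named by 2 libraries of wild-type ESC and 2 of an ESC line with the genotype CMV-creERT; Hdac3f/f, without tamoxifen. The ESC Lamin B list was named by those same kinds of library, 2 of each, and by 2 further libraries of the CMV-creERT; Hdac3f/f line in which 1 µg/ml tamoxifen for 24 h had deleted Hdac3. In this line a CMV promoter drives the inducible Cre, and Hdac3 encodes a histone deacetylase. The wild-type ESC had been kept in serum-free 2i medium. The labels do not say how these libraries were merged into a list, and the ESC lists may represent wild-type cells or a mixture of both lines. Each list exists once, so no difference below has a replicate error or a test, and the sequencing depth is unknown.

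Most gained stretches were short, and a minority held most of the sequence. Their median length was 50 kb (interquartile range 30 to 99 kb) and the longest was 580 kb. The 213 stretches of at least 100 kb made up 24.9% of the number but 56.1% of the length, with 37.1 Mb, and 60 stretches reached 200 kb. Domain edges lay on fixed bins of 20 kb in the CM H3K9me2 list and 10 kb in the ESC H3K9me2 list, and lengths piled up at multiples of these. Just inside the length limit, 126 stretches measured exactly 20 kb and 105 exactly 30 kb. Just outside it, 316 stretches measured 10 to 19 kb, of which 278 were exactly 10 kb, and all stretches under 20 kb added only 3.86 Mb. The short members are therefore 1 or a few bins long, and the count of gained stretches depends on the limit far more than their total length does. When the other 3 lists were widened by 20 kb at each domain end, 518 stretches and 44.8 Mb were left.

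The stretches fell into 4 kinds by what lay at their ends. A stretch could run from the edge of an ESC H3K9me2 domain to the end of the CM domain (extension), join a pair of ESC H3K9me2 domains (bridge), border a Lamin B domain on at least 1 side, or be a whole CM domain on its own. Extensions were the most numerous, with 425 stretches (49.8%) and 27.8 Mb. Bridges numbered 195 (22.8%, 13.8 Mb), stretches beside Lamin B 186 (21.8%, 15.7 Mb), and whole CM domains 48 (5.62%, 8.78 Mb). Most gained sequence outside the lamina was thus attached to H3K9me2 or Lamin B domains, and only 13.3% of the length stood as separate CM domains. These few separate domains were long, with a median of 180 kb against 50 kb for extensions, 50 kb for bridges and 55 kb beside Lamin B. A CM domain had a minimum length of 40 kb in its list, whereas the other kinds could be as short as 20 kb. The kinds also depended on how domains were delimited. Merging ESC H3K9me2 domains across gaps under 100 kb, which removes all shorter bridges by construction, left 6.60% bridges. Limiting the CM list to domains at or above its median score left no whole CM domain. This too was by construction, since all of them scored below that median.

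**Figure D1:**
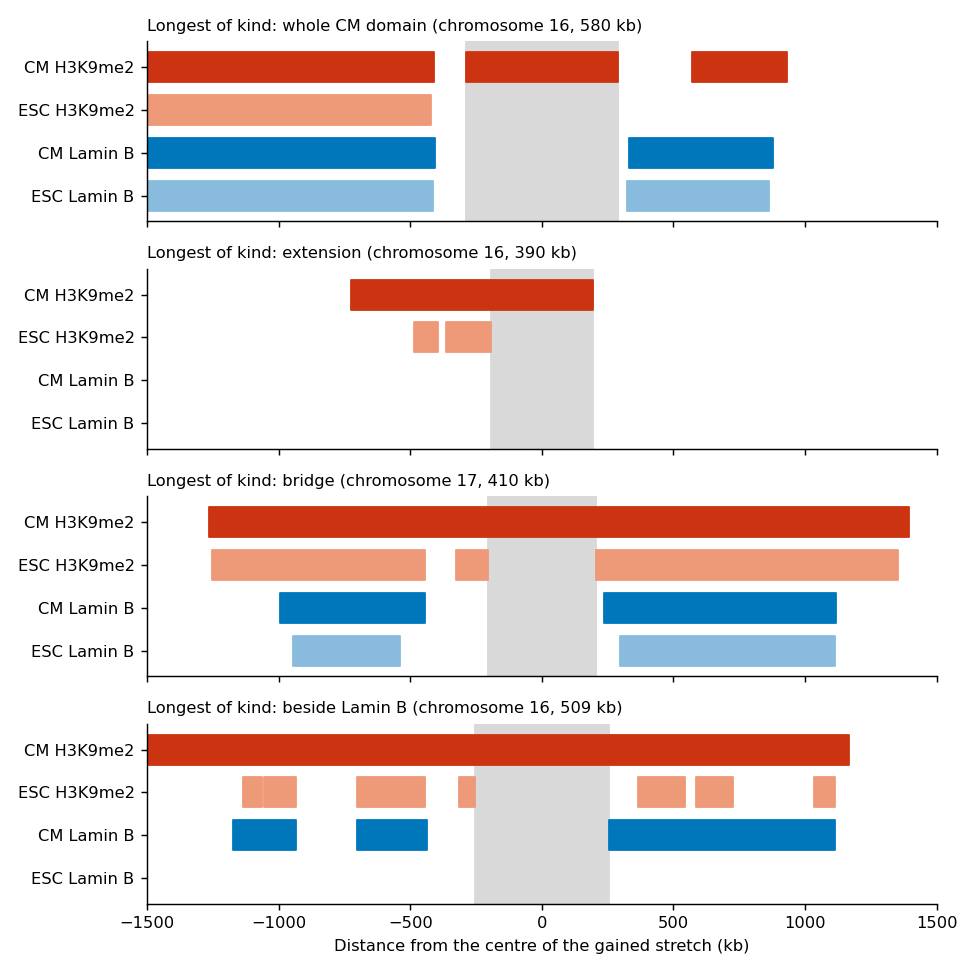
Domains of the 4 lists around the longest gained stretch of each kind; the horizontal axis is the distance from the centre of the stretch in kb, coloured bars are domains, and grey shading marks the gained stretch. The whole CM domain and the extension are shaded where CM H3K9me2 alone is present, the bridge joins a pair of ESC H3K9me2 domains, and the last stretch ends where CM Lamin B begins.

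**Figure D2:**
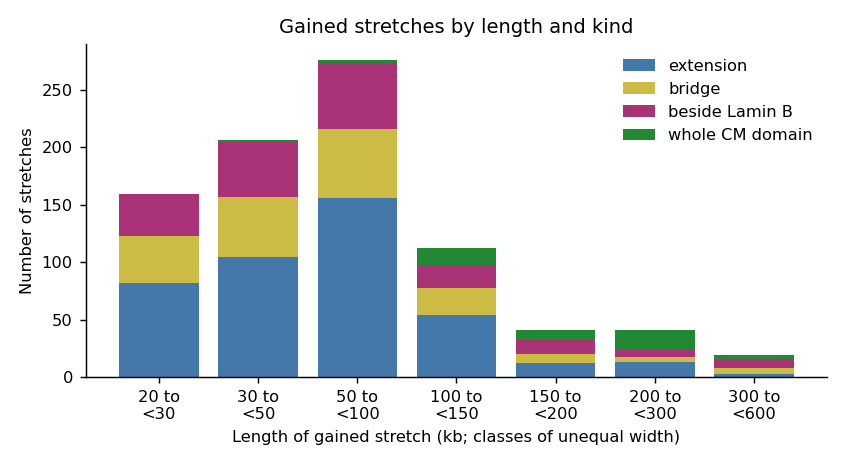
Number of gained stretches (vertical axis) by length in kb (horizontal axis, classes of unequal width), with colours for the 4 kinds. Extensions are the most frequent kind in every class below 150 kb, and nearly all whole CM domains are at least 100 kb long (44 of 48).

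Whole CM domains were gained H3K9me2 with no Lamin B domain at either end. An ESC H3K9me2 domain just outside them was not excluded by the definition. The longest was 16:42280001–42860000 (mm9, 580 kb). Its nearest Lamin B domain was an ESC domain 34 kb away, and ESC H3K9me2 was 130 kb away. The next, 3:52220001–52640000 (420 kb), lay 1040 kb from Lamin B and 910 kb from ESC H3K9me2. No list had a domain within 500 kb on either side of it, so it was an isolated CM domain. The third, 16:95220001–95560000 (340 kb), was isolated in the same way, 5713 kb from Lamin B and 1170 kb from ESC H3K9me2. The median distance of these domains from Lamin B was 822 kb, the longest of the 4 kinds.

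Extensions reached from existing ESC H3K9me2 domains into free sequence. The longest, 16:12530001–12920000 (390 kb), filled the right-hand part of a CM domain of 920 kb. It was 1644 kb from the nearest Lamin B domain. The extension at 2:171450001–171800000 (350 kb) also lay far from Lamin B, at 6268 kb, and belonged to a CM domain of 1080 kb. At 15:74820001–75130000 (310 kb) the stretch formed the left-hand part of a CM domain of 560 kb, 2484 kb from Lamin B. In these 3 examples neither antibody had a domain in the 500 kb beyond the open end of the stretch, so H3K9me2 stopped in domain-free sequence.

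Bridges filled gaps that separated ESC H3K9me2 domains. The longest was 17:69420001–69830000 (410 kb), inside a CM domain of 2660 kb that also held Lamin B. The bridge itself was 31 kb from the nearest Lamin B domain. The bridge at 16:96860001–97240000 (380 kb) lay 7353 kb from any Lamin B domain, and that at 2:178700001–179050000 (350 kb) 555 kb away. Over chromosomes 1 to 19 there were 1062 gaps of at least 20 kb between ESC H3K9me2 domains without Lamin B inside or at their edges, and 195 of them (18.4%) were filled in CM from end to end. The share of gaps filled from end to end fell with their width. A wider gap needs more bins covered to count as filled, so some of this fall is built into the measure. Filling was complete in 93 of 181 gaps of 20 to under 50 kb (51.4%) and 60 of 168 gaps of 50 to under 100 kb (35.7%). It was complete in 32 of 163 of 100 to under 200 kb (19.6%) and 10 of 211 of 200 to under 500 kb (4.74%). None of the 339 gaps of 500 kb or more was filled. The share of gaps with no CM H3K9me2 at all changed little with width, from 37.6% in the narrowest class to 43.7% in the widest. The ESC domains that a bridge joined were of ordinary length, with a median of 140 kb, the same as all ESC H3K9me2 domains on these chromosomes.

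In the first 1 kb bin beyond their ends, stretches beside Lamin B mostly met Lamin B of CM alone. Lamin B edges lay on bins of 11 kb in CM and 9 kb in ESC. A domain shared by both cell types can therefore read as CM-only or ESC-only in that bin. How often this happened was not tested. Of 1708 ends in all, 202 (11.8%) met a Lamin B domain, 864 met ESC H3K9me2 without Lamin B and 642 were the end of the CM domain. In the first bin beyond the 202 lamina ends, 166 (82.2%) met CM-only Lamin B, 32 met ESC-only Lamin B and 4 met Lamin B of both cell types. At 156 of the 166 ends H3K9me2 was still CM-only in the first bin of the Lamin B domain, which follows from adjacency to a gained stretch unless an H3K9me2 edge falls in that bin. The run with both antibodies in CM alone beyond these ends was often narrow, with a median of 14.5 kb (interquartile range 4 to 46 kb). In 90 of the 156 cases it was 20 kb or less, within 1 bin of the CM H3K9me2 list. At 16:6960001–7469000 (509 kb) the stretch ran from an ESC H3K9me2 domain to a CM Lamin B domain, while the nearest ESC Lamin B was 11620 kb away. The stretch at 16:5560001–6039000 (479 kb) belonged to the same CM H3K9me2 domain, 16:5560001–8380000, of which 49.3% was gained outside Lamin B. At 16:49698001–50200000 (502 kb) the stretch bordered Lamin B of both cell types on its left, and ESC H3K9me2 ended 8 kb from it.

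The other members of the 10 longest were 1:127259001–127630000 (371 kb) and 18:3762001–4120000 (358 kb), both beside CM Lamin B. The former joined it to an ESC H3K9me2 domain inside a CM H3K9me2 domain of 5620 kb. The latter lay in a CM domain of 600 kb with ESC H3K9me2 1710 kb away and ESC Lamin B 2972 kb away. The stretches farthest from Lamin B were a 50 kb bridge at 11:81780001–81830000 and a 210 kb extension at 11:81990001–82200000, at 7602 and 7395 kb. Both belonged to 1 CM domain of 740 kb, and the bridge at 16:96860001–97240000 came next.

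Gained stretches were spread over 580 of the 1140 CM H3K9me2 domains on chromosomes 1 to 19. Of these, 394 held 1 stretch and 186 held 2 or more, so that 53.9% of the stretches shared their domain with another. The most in a domain was 8, reached at 12:25940001–29260000 (700 kb gained of 3320 kb) and 1:189220001–190780000 (433 kb of 1560 kb). A typical domain that held a stretch was 480 kb long and 17.5% gained, with 77.3% of its length in ESC H3K9me2 (medians). Only 104 CM domains were gained over more than 50% of their length.

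The authors gave each domain a score, which was used only to rank domains within a list. Whole CM domains ranked low, with a median at percentile 13.8 of the CM list, and 40 of the 48 lay in its lowest 25% and none above its median. The CM domains around the other stretches ranked higher, with medians at percentile 45.6 for extensions, 65.2 for bridges and 70.8 beside Lamin B. These domains were also longer (median 420, 860 and 1000 kb), and in the CM list the score rose with length (Spearman's rho = 0.962 across 1140 domains, which are not replicates). Wholly gained domains of 100 to under 200 kb had a median score of 3.13 (n = 24). CM domains of that length outside Lamin B that were at least 50% ESC H3K9me2 had 3.03 (n = 101). At 200 to under 300 kb the medians were 3.16 (n = 17) and 4.53 (n = 63), but the median lengths within that class also differed, at 200 and 240 kb.

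**Figure D3:**
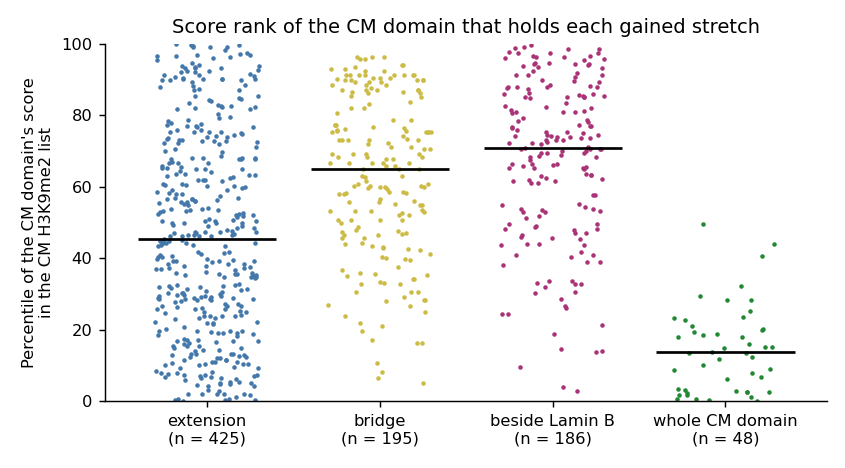
Percentile of the authors' score within the CM H3K9me2 list (vertical axis) for the CM domain that holds each gained stretch, by kind; points are stretches and horizontal lines are medians. Whole CM domains sit in the lower part of the list, with a median of 13.8, while the other kinds cover nearly the whole range.

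Gained sequence was densest close to Lamin B domains, by distance along the chromosome. Of the sequence in none of the other 3 lists, 1067 Mb that could have been gained, 6.2% lay in gained stretches. The share was 27.3% within 20 kb of a Lamin B domain, 21.02% from there to 100 kb, 5.87% from 100 kb to 1 Mb and 3.55% beyond 1 Mb. In length, 21.2 Mb lay within 100 kb of Lamin B and 18.5 Mb beyond 1 Mb. Counted by stretch, 186 adjoined Lamin B, 192 were 1 to under 100 kb away, 262 were 100 kb to under 1 Mb away and 214 (25.1%) at least 1 Mb away. Median lengths changed little with distance, at 55, 50, 60 and 50 kb. Stretches far from Lamin B along the chromosome were thus about as long as those beside it, and sparser. A higher density near Lamin B was not particular to gained sequence. ESC H3K9me2 outside Lamin B held 11.1 Mb beside 20.2 Mb of free sequence within 20 kb. Beyond 1 Mb it held 65.2 Mb beside 522 Mb.

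The mirror case, H3K9me2 of ESC that was absent in CM and free of Lamin B in both, was placed differently. These lost stretches numbered 505 and held 41.8 Mb, 21.2% of the ESC H3K9me2 sequence outside Lamin B. Only 17 (3.37%) adjoined Lamin B, against 21.8% of gained stretches, and their median distance from it was 404 kb against 170.5 kb. The share of ESC H3K9me2 lost was 11.8% within 100 kb of Lamin B, 24.7% from 100 kb to 1 Mb and 22.0% beyond 1 Mb, so it was lowest near Lamin B, where the gained share was highest. By kind, 414 of the 505 lost stretches (82.0%) were whole ESC domains, with a median of 80 kb, against 5.62% whole domains among gained stretches. The ESC list was cut into smaller bins and more domains, so the part of this contrast that comes from the division of the lists cannot be told apart. H3K9me2 common to both cell types outside Lamin B, in 973 stretches with a median of 110 kb, adjoined Lamin B more often than either, at 35.97%. The differences between these sets were not tested, since stretches of 1 list are not replicates.

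**Figure D4:**
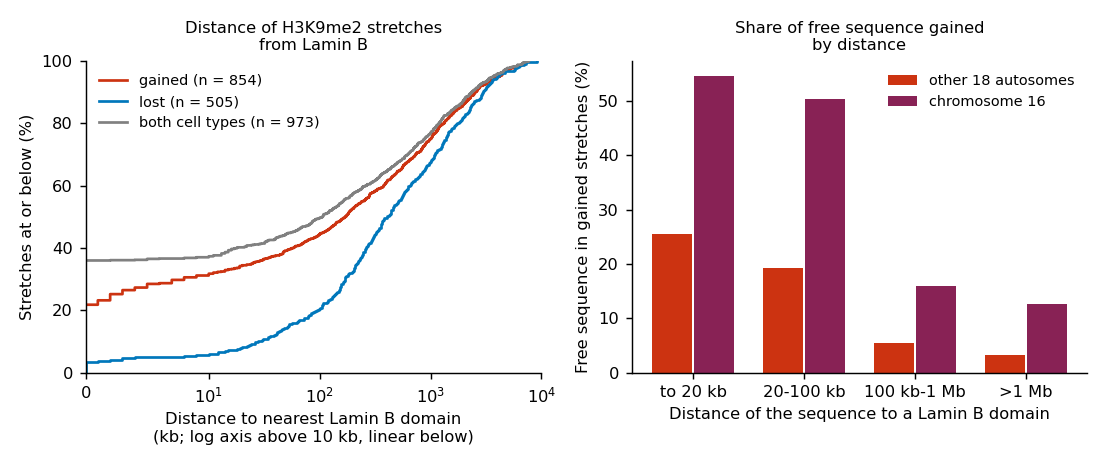
Left, cumulative share of stretches (vertical axis, %) by distance to the nearest Lamin B domain in kb (log axis above 10 kb) for gained, lost and common H3K9me2 outside Lamin B. Right, share of free sequence that lay in gained stretches (bars, %) by its distance from Lamin B; the share falls from 25.5% to 3.18% on 18 autosomes and from 54.6% to 12.7% on chromosome 16.

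Gained length exceeded lost length outside the lamina by 1.58 times, and the number of stretches by 1.69 times. The size of this excess depended on the grid. With the lists on a common 20 kb grid the length ratio was 1.21, with 853 gained and 717 lost stretches. The part that the unequal bins of the 2 H3K9me2 lists have in this fall was not tested. On the 1 kb grid the excess was concentrated near Lamin B. Within 100 kb the ratio of gained to lost length was 4.46, from 100 kb to 1 Mb it was 1.16, and beyond 1 Mb it was 1.29. Without chromosome 16 the ratio was 1.39 over all distances and 1.05 and 1.11 in the outer 2 classes. Beyond 100 kb from Lamin B on the other autosomes, gains and losses were thus nearly equal in length on this 1 kb grid. With only CM H3K9me2 domains at or above the median score kept, the ratio over all distances and autosomes fell to 0.37. With both H3K9me2 lists cut in this way it was 1.18.

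Chromosome 16 stood apart from all other autosomes. Gained stretches covered 19.05% of its free sequence, against 2.14% (chromosome 11) to 9.34% (chromosome 18) on the other 18, whose median was 5.71%. It held 55 stretches and 8.06 Mb, or 12.2% of the gained length on 3.97% of the free sequence. A single lost stretch of 90 kb lay on it, whereas the others had between 12 and 46, but only 2.38 Mb of ESC H3K9me2 outside Lamin B could be lost there, against 5.54 to 15.7 Mb on the others. Of the 20 longest gained stretches of the genome, 7 were on chromosome 16. Its stretches had a median of 100 kb against 50 kb elsewhere, and 47.3% of them were beside Lamin B against 20.0%.

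Of the H3K9me2 lists, it was that of ESC in which chromosome 16 lay outside the range of the others. Outside Lamin B, ESC H3K9me2 covered 5.33% of chromosome 16, below the 11.2% to 21.8% of the other 18 autosomes. CM H3K9me2 covered 23.3% of it, within their range of 11.7% to 25.4% but above their median of 18.1%. Only chromosome 18 had a higher CM value. Inside sequence that was Lamin B in both cell types, ESC H3K9me2 covered 91.9% of chromosome 16, below their median of 94.7% but within their range of 88.9% to 97.9%. The higher gain on chromosome 16 was present at every distance, with 51.3%, 15.9% and 12.7% of free sequence gained within 100 kb, from 100 kb to 1 Mb and beyond 1 Mb, against 20.5%, 5.49% and 3.18% on the other autosomes. Along the chromosome it was uneven. In windows of 10 Mb the gained share was 38.7% in 16:40000001–50000000 and 37.9% in 16:1–10000000, but 2.49% in 16:30000001–40000000. Chromosome 16 also had much Lamin B present in CM alone, 8.14% of its span, second among autosomes to the 10.2% of chromosome 3. Lamin B present in ESC alone covered 0.0615% of it, the least of the autosomes (0.192% to 3.59% on the others). Its gained share was 8.12% when only stretches at least 100 kb from Lamin B were kept, 10.6% with only CM domains at or above the median score and 11.3% with both H3K9me2 lists filtered in this way. It was the highest of the autosomes in each case, followed by 6.29%, 4.94% and 6.38%. The number of copies of each chromosome in the cells was not analysed here, and its part in these values was not tested.

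Among the other autosomes, gained and lost stretches were less uneven. Chromosomes 18, 3 and 1 had the next highest gained shares, at 9.34%, 8.81% and 7.42%. Gained length exceeded lost length on 14 of the 19 autosomes. The exceptions were chromosomes 6, 8, 11, 14 and 19, with ratios of 0.549, 0.707, 0.479, 0.875 and 0.454. Chromosome 11 had the lowest gained share, with 25 stretches and 1.41 Mb gained against 2.94 Mb lost, and chromosome 19 had the highest lost share, 42.1% of its ESC H3K9me2 outside Lamin B. Across the 19 autosomes the gained share was higher where CM-only Lamin B covered more of the chromosome (Pearson's r = 0.592, Spearman's rho = 0.612). It was lower where more ESC H3K9me2 was lost (r = -0.621, rho = -0.505). These are descriptions over 19 chromosomes of the same 4 lists. Without chromosome 16 the first r was 0.645 and the first rho 0.548. The second r was then -0.443 and the second rho -0.418.

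**Figure D5:**
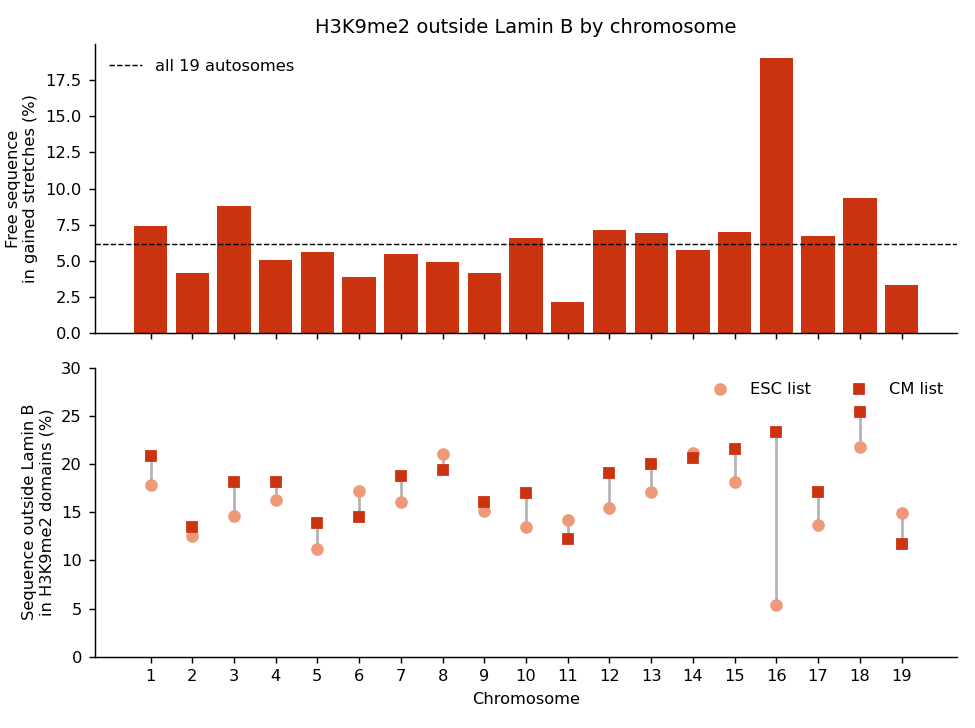
Top, share of free sequence in gained stretches (bars, %) on each autosome, with the value over all 19 as a dashed line (6.2%); bottom, share of sequence outside Lamin B in H3K9me2 domains (%) of the ESC list (circles) and the CM list (squares). Chromosome 16 has the highest bar, at 19.05%, and the lowest ESC value, at 5.33%, while its CM value of 23.3% is below only that of chromosome 18.

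Gained stretches were also denser at the start of the chromosomes, which in the mouse is the centromeric end. When the span of each chromosome was divided into 10 equal parts, 12.3% of the free sequence was gained in the first part, against 4.67% to 7.79% in the other 9. Without chromosome 16 the first part had 10.7%. The first part was above the chromosome's own share on 14 of 19 autosomes. It also had the most free sequence within 100 kb of Lamin B, 18.2% against 4.88% to 9.85% in the others, and the part that this nearness has in the gained share was not tested. The distal end of chromosome 3 without any ESC domain, 3:154230001–159599000, held 1 gained stretch of 23 kb and hardly touches these results.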

How the data were processed

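The data were 4 deposited lists of domains in build mm9, from ChIP-seq of Lamin B and H3K9me2 in ESC and CM. STAR, Picard and deepTools are named in the submitters' processing notes, without versions. Per the file headers, the authors called domains with g 10, bins chosen automatically and an FDR setting of 5. Neither the caller nor the scale of the score is stated in the labels or headers. The only value per domain is this score, deposited by the authors. The files hold no counts, so depth, its precision and replicate spread are unknown.

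Domains were laid on a grid of 1 kb bins (Python 3.11.15, pandas 2.3.3, numpy 2.4.6). Bins before the first or after the last domain of a chromosome were left out. The finder of stretches was checked on simulated lists. Correlations used scipy 1.17.1 and figures matplotlib 3.10.9. No test was made, since each list exists once. The regions named are the 10 longest stretches, the 3 longest of each kind and the 3 farthest from Lamin B, together with chromosomes of extreme shares; the domains with most stretches were chosen after their values were seen. The members, rules and alternatives were chosen with earlier results of these data known. The gene tables at hand are of another build than the lists, so no genes or sequences are given for the stretches.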

Additional observations from a re-analysis of the deposited data

How the results depend on the processing

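In total 12 alternatives were run. Leaving out chromosome 16 and filtering both H3K9me2 lists by score were chosen after the data were seen, and the other 10 were planned. No paired analysis was possible because the lists hold no values per library, and for the same reason leaving out a library could not be tried. Gained exceeded lost length in 11 of the 12, and the exception was by construction: with the CM H3K9me2 list alone limited to domains at or above its median score, more ESC sequence counts as lost (95.5 Mb) and the ratio was 0.37. The other ratios ran from 1.07 (at least 100 kb from any Lamin B domain, and also after merging ESC H3K9me2 across gaps under 100 kb) to 1.91. The merging also changed 1 list alone, with 57.1 Mb gained and 53.2 Mb lost. Leaving out distal chromosome 3 (1.58) or adding chromosome X (1.55) changed little, so the count of alternatives is not a measure of robustness. Chromosome 16 had the highest gained share in all 11 alternatives that hold it, and chromosome 11 the lowest in 9 of 12.

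Amounts moved as follows, with the cause not tested unless the setting itself removes sequence. The number of gained stretches was 489 at a minimum of 50 kb, 213 at 100 kb, 467 under the CM score filter, 443 under the filter of both lists, 518 with the other 3 lists widened by 20 kb and 476 at least 100 kb from Lamin B. Their length was 37.1 Mb at a minimum of 100 kb, 35.3 Mb under the CM score filter and 36.9 Mb at least 100 kb from Lamin B. The share of bridges was 19.7% at 100 kb, 18.2% on a common 20 kb grid, 6.60% after merging, 29.8% and 14.4% under the CM and the joint score filter, 17.0% after widening and 26.1% away from Lamin B. Extensions made up 53.7% at a minimum of 10 kb, 38.5% at 100 kb, 61.2% after merging, 40.0% and 44.0% under the score filters and 65.1% away from Lamin B. Whole CM domains made up 4.10% at 10 kb, 9.61% at 50 kb, 20.7% at 100 kb, 7.55% after merging, 0% and 0.903% under the score filters, 9.27% after widening and 8.82% away from Lamin B. Stretches beside Lamin B made up 29.7% on the 20 kb grid, 24.7% after merging, 30.2% and 40.6% under the score filters and, by construction, 0% away from Lamin B. On chromosome 16 the gained share was 18.4% at 50 kb, 15.5% at 100 kb, 18.5% after merging, 10.6% and 11.3% under the score filters, 16.7% after widening and 8.12% away from Lamin B. On chromosome 11 it was 2.28%, 1.62% and 0.571% at 10, 50 and 100 kb, 1.93% on the 20 kb grid, 1.53% after merging, 1.76% and 2.34% under the score filters, 1.12% after widening and 1.49% away from Lamin B.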
